A study of Mus musculus with 10 samples.

Results

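The neuropeptide Y (NPY) receptors are represented here by 4 genes, *Npy1r*, *Npy2r*, *Npy4r* and *Npy5r*, chosen by symbol from the 48397 genes counted in single neurons of the mouse paraventricular hypothalamus (PVH). All 4 symbols were found, and each was followed across the clusters that the study assigned to its cells. The cells came from male offspring of Agrp-IRES-Cre mice crossed with the Ai9 tdTomato reporter, more than 7 weeks old, and they were picked by hand from slices. All belong to the same condition, with no treatment compared. In these mice the Cre driver labels neurons that express *Agrp*, and in the study's methods the labelled axons served to find the PVH. The labels call the picked cells labelled neurons of the cross, yet *Agrp* itself was detected in 12 of the 664 PVH cells.

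NPY is a peptide that AGRP neurons of the arcuate nucleus release in the PVH together with AgRP and GABA, and it promotes feeding. Its receptors are G protein–coupled receptors that act through inhibitory Gi/o proteins, which lower cyclic AMP and can open GIRK potassium channels. The Y1 receptor (*Npy1r*) and the Y5 receptor (*Npy5r*) are the types most tied to feeding in the hypothalamus, the Y2 receptor (*Npy2r*) is best known as a presynaptic autoreceptor, and the Y4 receptor (*Npy4r*) prefers pancreatic polypeptide. AgRP acts on another receptor of the same neurons, the melanocortin 4 receptor (*Mc4r*), which couples to Gs.

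The data were counts of unique molecular identifiers (UMIs) in 706 cells from 10 plates, with 43 to 87 cells per plate. The plate was the replicate, and which animals a plate came from is not given in the sources used here, so the spread between plates may be technical. Of 15 clusters, the study counts 12 as PVH, with 664 cells and 16 to 221 cells per cluster, and sets clusters 5, 6 and 11 (42 cells) aside as non-PVH. A cell held 50646 to 1078101 UMIs. The median per cell was 235270 on the 4 plates with the prefix Q and 85167 on the 6 plates with the prefixes AL and JM. These prefixes are treated as batches of plates, and what they stand for is not given in the sources used here. The batches did not hold the same clusters. Cluster 8 had 40 of its 42 cells on Q plates, and cluster 13 had none of its 16 there. Detection means 1 or more UMIs in a cell, and levels are UMIs of the receptor for every 1000000 UMIs (CPM) of the cluster's cells on a plate, over plates with at least 3 such cells. Levels are compared between clusters and not between receptors.

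In the mouse genome (GRCm38, GENCODE annotation), *Npy1r* (ENSMUSG00000036437.6) lies at chr8:66697192-66706792 on the plus strand and *Npy5r* (ENSMUSG00000044014.9) at chr8:66679965-66688128 on the minus strand. The genes are neighbours that point away from each other, with 9063 bases between their starts. *Npy2r* (ENSMUSG00000028004.12) lies at chr3:82538383-82548084 and *Npy4r* (ENSMUSG00000048337.3) at chr14:34143992-34152489, both on the minus strand. The transcripts of the 4 genes shared no stretch of 31 bases, and no annotated gene overlaps any of them, so their reads can be told apart. The RefSeq sequences just before the annotated starts of *Npy5r* (chr8:66688129-66688344) and *Npy2r* (chr3:82548086-82548335) are shown because the first receptor was found mostly in cells with *Npy1r* and the second almost never. They are printed 5′ to 3′ on the minus strand of GRCm38.p6, with motif matches in capitals.
Npy5r: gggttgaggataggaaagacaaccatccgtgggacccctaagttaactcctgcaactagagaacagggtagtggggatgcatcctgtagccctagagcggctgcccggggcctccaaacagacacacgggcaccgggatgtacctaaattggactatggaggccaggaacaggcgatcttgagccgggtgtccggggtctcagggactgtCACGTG
Npy2r: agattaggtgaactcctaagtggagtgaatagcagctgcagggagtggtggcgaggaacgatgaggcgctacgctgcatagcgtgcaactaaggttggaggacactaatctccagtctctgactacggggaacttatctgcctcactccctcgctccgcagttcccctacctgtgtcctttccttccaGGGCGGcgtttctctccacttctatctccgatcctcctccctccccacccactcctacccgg
Windows of 300 bases around the start were searched on both strands for the cyclic AMP response element TGACGTCA, the E-box CACGTG, the GC box GGGCGG and the TATA box TATAAA. *Npy5r* held the E-box, as did 7.15% of 32851 mouse promoters, and *Npy2r* and *Npy4r* held the GC box, as did 35.7%. *Npy1r* held none of these letters, and neither TGACGTCA (1.79% of promoters) nor TATAAA (13.6%) occurred in any of the 4 windows. For *Npy1r* the window overlaps an annotated first exon and is not printed.

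At least 1 of the receptors was detected in 125 of the 664 PVH cells (18.8%). A single receptor was found in 111 cells, 2 receptors in 13 cells, 3 in 1 cell and all 4 in none. Clusters differed widely in this share, from 32 of 35 cells in cluster 7 and 14 of 16 in cluster 13 to 8 of 221 in cluster 1 and 0 of 22 in cluster 4, so that at this number of cells a share of up to 13.6% could have gone unseen for each receptor. *Npy1r* was found in 77 PVH cells (11.6%, 95% interval 9.26 to 14.3), *Npy2r* in 36 (5.42%, 3.83 to 7.43), *Npy5r* in 20 (3.01%, 1.85 to 4.61) and *Npy4r* in 7 (1.05%, 0.425 to 2.16). These intervals are exact Clopper-Pearson intervals and cover counting error only.

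**Figure D1:**
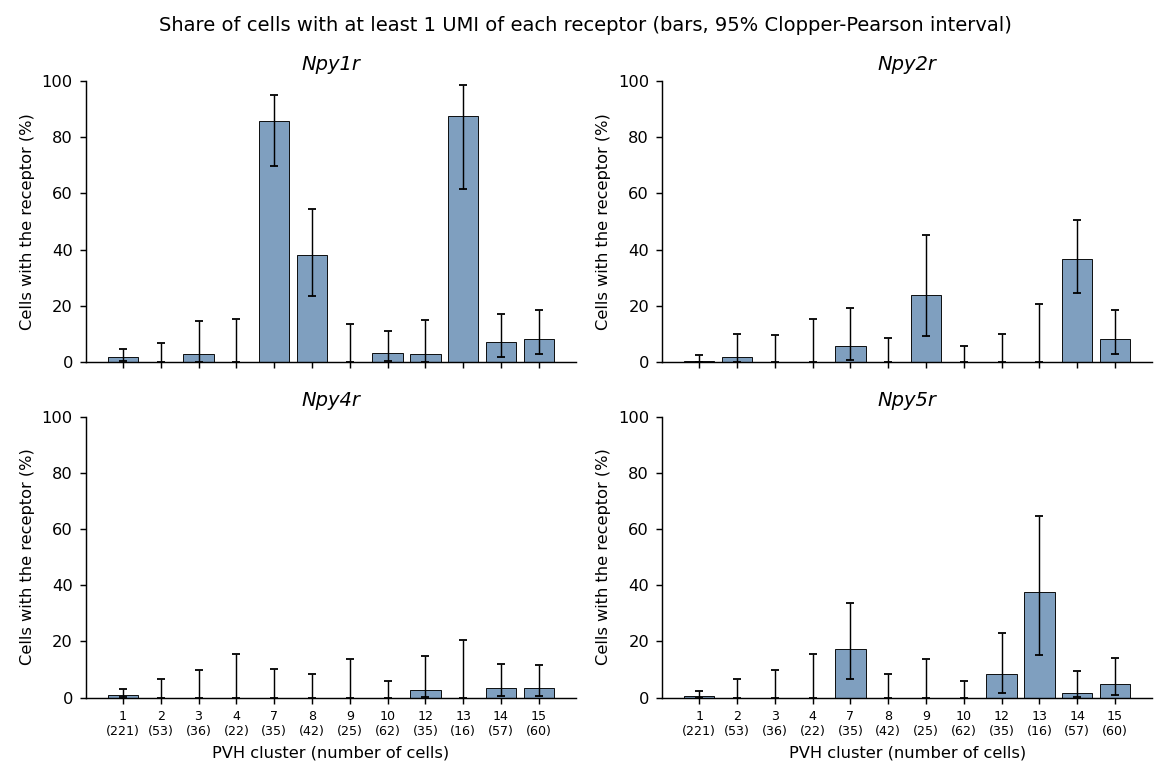
Share of cells with at least 1 UMI of each receptor (percent, bars) in the 12 PVH clusters, with 95% Clopper-Pearson intervals and the number of cells under each cluster. *Npy1r* reaches 85.7% in cluster 7 and 87.5% in cluster 13, *Npy2r* 36.8% in cluster 14, *Npy5r* 37.5% in cluster 13, and *Npy4r* at most 3.51%, in cluster 14.

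*Npy1r*, the Y1 receptor, was concentrated in clusters 7, 13 and 8. Together these clusters held 60 of the 77 PVH cells with *Npy1r* (77.9%) and 92.9% of its UMIs. It was detected in 30 of 35 cells of cluster 7 (85.7%, 69.7 to 95.2), in 14 of 16 cells of cluster 13 (87.5%, 61.7 to 98.4) and in 16 of 42 cells of cluster 8 (38.1%, 23.6 to 54.4). By contrast, it was found in 4 of 221 cells of the oxytocin-rich cluster 1 (1.81%), in 2 of 62 cells of cluster 10 (3.23%), in 4 of 57 cells of cluster 14 (7.02%) and in 5 of 60 cells of cluster 15 (8.33%). Clusters 2, 4 and 9 together had *Npy1r* in 0 of 100 cells (upper limit 3%). The median total per cell was 120911 UMIs in cluster 7 and 253588, 87193 and 153729 in clusters 2, 4 and 9. UMIs of oxytocin (*Oxt*), an abundant transcript of cluster 1, were found in 656 of the 664 PVH cells, and the part of free RNA in such shares was not tested. *Npy1r* is one of the marker genes the study chose on these cells.

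Among the neurons with *Npy1r*, clusters 7 and 8 were those in which all cells had somatostatin (*Sst*) UMIs, at 14291 ± 9317 CPM (SD, n = 8 plates) in cluster 7 and 9691 ± 4727 CPM (SD, n = 4) in cluster 8. Cluster 13 was marked by *Gad2*, an enzyme of GABA synthesis, which was found in 15 of its 16 cells. *Slc32a1*, the transporter that loads GABA into vesicles, was at 0 in all PVH cells, and *Slc17a6*, the vesicular glutamate transporter, was found in 14 of the 16 cells of cluster 13. *Otp*, a transcription factor of PVH neurons, was found in 87 of 93 cells (93.5%) when clusters 7, 8 and 13 were pooled, against 474 of 489 cells (96.9%) of the PVH clusters other than 7, 8, 9, 13 and 14. *Sim1*, another transcription factor of PVH neurons, was found in 38 of 93 (40.9%) and 320 of 489 cells (65.4%). Of the markers of other cell types, *Cartpt*, which POMC neurons also express, moved with *Npy1r*: it was found in 77 of these 93 cells (82.8%) and in 137 of the 489 (28.0%). *Pomc* was found in 41 of 93 and 218 of 489 cells, *Agrp* in 5 and 5, and *Npy* in 0 and 3. The part of these genes in the *Npy1r* pattern was not tested.

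By plate, *Npy1r* in cluster 7 was 45.8 CPM on Q5, 168 on Q6, 188 on Q7, 254 on Q8, 142 on AL5, 150 on JM5, 97.1 on JM6 and 77.8 on JM7. The other PVH clusters of the same plates averaged 5.57 ± 4.36 CPM (SD, n = 8), so cluster 7 was higher on 8 of 8 plates, in both batches. In cluster 13 the level was 110 CPM on AL5, 87.1 on AL6 and 121 on JM6, against 6.16 ± 5.57 CPM (SD, n = 3) in the other clusters. In cluster 8 it was 30.6 CPM on Q5, 60.6 on Q6, 20.2 on Q7 and 68.5 on Q8, against 9.96 ± 4.81 CPM (SD, n = 4). On each of these plates clusters 13 and 8 were also higher than the other clusters of the same plate. Clusters 8 and 13 shared no plate with 3 cells of each, so that their difference cannot be told apart from the difference between batches.

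Ordered by mean level, *Npy1r* was 140 ± 66.4 CPM (SD, n = 8) in cluster 7, 106 ± 17.3 (SD, n = 3) in cluster 13 and 45.0 ± 23.2 (SD, n = 4) in cluster 8. Clusters 7 and 13 did not differ beyond the spread between plates, and clusters 13 and 8 did, on plates with at least 3 cells. On plates with 2 cells, left out here, cluster 13 had 10.8 CPM on JM5, 99.4 on JM7 and 332 on JM8. Cluster 8 had 120 CPM on JM8, also from 2 cells, so the difference between clusters 13 and 8 depends on this limit. Cluster 15 followed at 19.8 ± 41.7 CPM (SD, n = 8) and did not differ from cluster 8 beyond its spread. This mean rested on plate Q8, where 1 of 3 cells brought the level to 120 CPM, and without that plate it was 5.45 CPM. Clusters 3, 14, 1, 12 and 10 ranged from 4.11 to 0.131 CPM, with no neighbouring pair apart beyond the spread. In cluster 3 all UMIs came from 1 cell on plate JM6, and in cluster 12 all from JM6 as well. Without the highest plate the means of clusters 14 (AL5), 1 (JM7) and 10 (Q6) were 0.168, 0.185 and 0.0693 CPM.

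**Figure D2:**
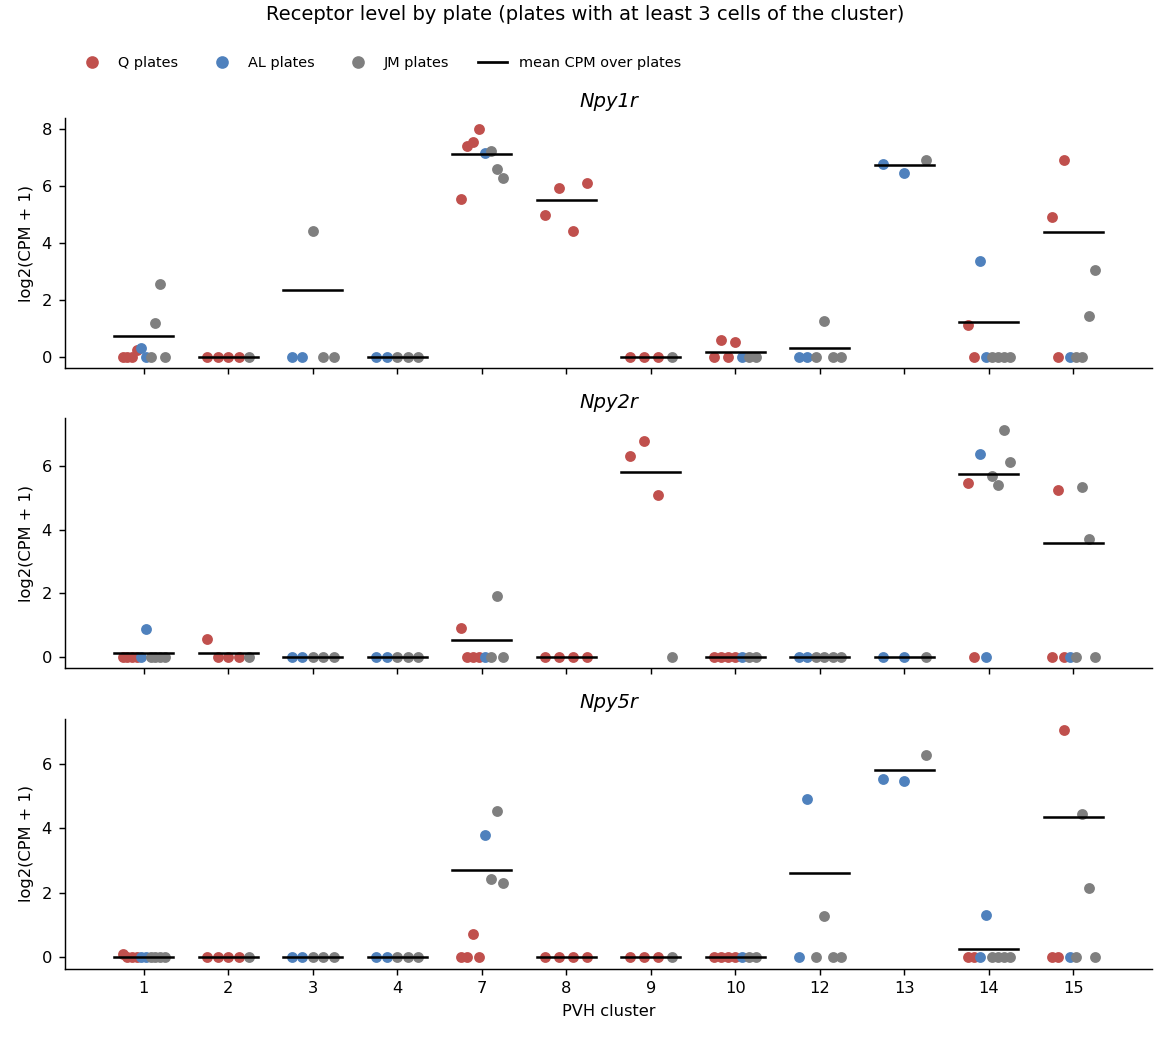
Level of *Npy1r*, *Npy2r* and *Npy5r* on each plate with at least 3 cells of the cluster, as log2(CPM + 1), with points coloured by plate batch and a line at the mean CPM over plates. The 8 plates of cluster 7 sit between 45.8 and 254 CPM of *Npy1r*, whereas *Npy2r* is above 0 on 6 of 8 plates of cluster 14 and on 3 of 4 plates of cluster 9.

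To test these differences across all genes, UMIs were summed per plate for the cells of a cluster and for the other PVH cells, and compared with edgeR. The clusters were drawn from the same cells, so these calls describe the clusters and are not independent evidence. Of the 48 pairs of a receptor and a cluster, 14 passed the filter on low counts, 10 of them for *Npy1r*, 3 for *Npy2r*, 1 for *Npy5r* and 0 for *Npy4r*. Of the 14, 5 passed an adjusted p of 0.05, and all 5 were for *Npy1r*, 2 higher and 3 lower. Over all genes and the 12 clusters, 3.29% of 130901 tests passed.

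*Npy1r* exceeded the other PVH cells in cluster 7, with a log2 difference of 4.79 ± 0.548 (SE, edgeR adjusted p = 5.17e-06, higher on 8 of 8 plates), where 1.11% of the genes tested were called higher. The difference in cluster 13 was 4.66 ± 1.06 (SE, edgeR adjusted p = 0.00669, higher on 3 of 3 plates), where 0.262% were called higher. With sums of at least 5 cells the call in cluster 7 was lost (edgeR adjusted p = 0.0760, log2 fold change 4.66), and without the plate as a block the call in cluster 13 was lost (edgeR adjusted p = 0.136). Cluster 13 could be tested only with all of AL5, AL6 and JM6.

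In 3 clusters *Npy1r* was called lower than in the remaining PVH cells. It fell by 6.67 on the log2 scale in cluster 1 (SE 0.904, edgeR adjusted p = 7.64e-05, lower on 10 of 10 plates), where 6.3% of the genes were called lower. In cluster 10 it fell by 6.36 (SE 1.37, edgeR adjusted p = 0.0107, 7 of 7 plates), with 3.55% of genes called lower. In cluster 14 it fell by 4.58 (SE 1.196, edgeR adjusted p = 0.0329, 8 of 8 plates), with 3.98% called lower. The last call was lost when Q7, AL6, JM5, JM6, JM7 or JM8 was left out, with edgeR adjusted p between 0.0577 and 0.0814. The remaining cells of each comparison included clusters 7, 8 and 13, which held 92.9% of the *Npy1r* UMIs. Low shares were not particular to the called clusters, since clusters 2, 4 and 9 had *Npy1r* in 0 of 100 cells. Clusters 2 and 9 were not called lower. In cluster 4 *Npy1r* did not pass the filter on low counts and was not tested.

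Cluster 8 did not pass for *Npy1r* in edgeR (log2 difference 2.08 ± 1.06, SE, edgeR adjusted p = 0.576), although it was higher on 4 of 4 plates, and DESeq2 gave an adjusted p of 0.0479. Clusters 2 and 9 held no UMI of *Npy1r*, against 16.8 ± 9.73 CPM (SD, n = 5) and 12.4 ± 5.47 CPM (SD, n = 4) in the other cells of the same plates, and did not pass (edgeR adjusted p = 0.0749 and 0.113). In cluster 15 the fitted log2 fold change was -2.5 (edgeR adjusted p = 0.442), opposite in sign to the means over plates of 19.8 and 14.98 CPM, and the cluster was lower on 6 of 8 plates.

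**Figure D3:**
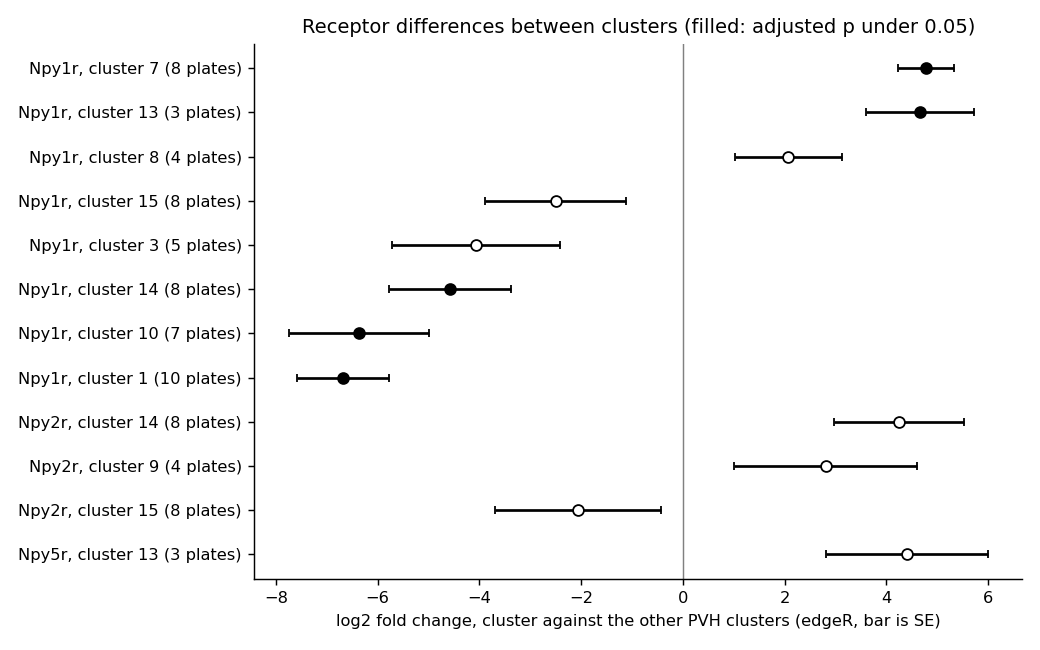
log2 fold change of a receptor in a cluster against the other PVH clusters (edgeR), for the tests that passed the filter. Bars are standard errors derived from the F statistic. *Npy1r* in clusters 2 and 9, which held no UMI of it, is left out. Filled points passed an adjusted p of 0.05: *Npy1r* higher in clusters 7 (4.79) and 13 (4.66) and lower in clusters 1, 10 and 14.

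*Npy2r*, the Y2 receptor, had another distribution, with 21 of its 36 PVH cells in cluster 14 and 6 in cluster 9. It was detected in 36.8% of the cells of cluster 14 (24.4 to 50.7), in 24% of those of cluster 9 (9.36 to 45.1) and in 8.33% of those of cluster 15 (2.76 to 18.4). Clusters 3, 4, 8, 10, 12 and 13 together had it in 0 of 213 cells (upper limit 1.41%). It was found in 2 of 35 cells of cluster 7, with 1 UMI each. Cluster 14 is a cluster of *Crh* (57 of 57 cells) and *Reln* (49 of 57 cells) neurons, and thyrotropin-releasing hormone (*Trh*) was found in 22 of 25 cells of cluster 9.

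In cluster 14 *Npy2r* was 43.2 CPM on Q5, 81.9 on AL5, 50.5 on JM5, 41.4 on JM6, 139 on JM7 and 68.2 on JM8, and 0 on Q7 and AL6. The groups overlapped, since 2 plates had no UMI. Within this cluster 2 of 15 cells had *Npy2r* on Q plates and 19 of 42 on the others, where the cells were shallower. In cluster 9 the levels were 78.0 CPM on Q5, 108 on Q6, 33.3 on Q7 and 0 on JM8. They came from 1 cell on Q5, 1 on Q6 and 2 on Q7. Plates with fewer than 3 cells of cluster 9 did not enter. There *Npy2r* was 587 CPM on AL5 (1 cell), 2.67 on Q8 (2 cells) and 0 on JM7 (1 cell).

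The mean was 54.9 ± 47.8 CPM (SD, n = 4) in cluster 9, 53.1 ± 45.3 (SD, n = 8) in cluster 14 and 11.02 ± 17.2 (SD, n = 8) in cluster 15. No neighbours in this order differed beyond their spread. Plates with fewer than 3 cells were left out. Among them cluster 15 had 270 CPM on Q6 (2 cells) and 0 on AL6, and cluster 14 had 0 on Q6 and Q8. Without its highest plate, cluster 9 (Q6) came to 37.1 CPM, cluster 14 (JM7) to 40.7 and cluster 15 (JM6) to 7.00, so clusters 9 and 14 changed places. None of the 3 tests passed in edgeR: cluster 14 had a log2 difference of 4.25 ± 1.277 (SE, edgeR adjusted p = 0.0673, higher on 6 of 8 plates), cluster 9 one of 2.81 (edgeR adjusted p = 0.506) and cluster 15 one of -2.06 (edgeR adjusted p = 0.598). For cluster 14 DESeq2 gave an adjusted p of 0.00986, edgeR without the plate block 0.00905 and edgeR without plate Q7 0.00548.

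*Npy5r*, the Y5 receptor, followed *Npy1r* in part. It was detected in 6 of 16 cells of cluster 13 (37.5%, 15.2 to 64.6) and in 6 of 35 cells of cluster 7 (17.1%, 6.56 to 33.6), but in 0 of 42 cells of cluster 8, which allows a share of up to 7.14%. Clusters 12 and 15 had 3 cells each, and clusters 2, 3, 4, 8, 9 and 10 together 0 of 240 cells. Only 3 of its 20 PVH cells were on the Q plates, which held 40 of the 42 cells of cluster 8 and 0 of the 16 of cluster 13. In cluster 7 *Npy5r* was found in 1 of 16 cells on Q plates and in 5 of 19 on the others. Its absence from cluster 8 therefore cannot be told apart from the difference between batches.

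In cluster 13 *Npy5r* was 45.5 CPM on AL5, 43.5 on AL6 and 76.2 on JM6, against 2.69 ± 1.78 CPM (SD, n = 3) in the other PVH clusters. It was higher on each of these plates. JM5, JM7 and JM8 held 2 cells of the cluster each, with 0 UMIs of *Npy5r*, and did not enter these levels. The test did not pass (log2 difference 4.40 ± 1.59, SE, edgeR adjusted p = 0.225), whereas DESeq2 gave an adjusted p of 0.000530. The order of means was cluster 13 (55.1 ± 18.3 CPM, SD, n = 3), cluster 15 (19.4 ± 45.5, SD, n = 8), cluster 7 (5.49 ± 8.01, SD, n = 8) and cluster 12 (5.08 ± 11.8, SD, n = 6). No neighbours differed beyond the larger spread. The mean of cluster 15 came mainly from 1 cell on plate Q8 (131 CPM) and was 3.47 CPM without it. Without the highest plate, JM6 for cluster 7 and AL6 for cluster 12, those means were 3.10 and 0.283 CPM.

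*Npy4r*, the Y4 receptor, was found in 7 cells with 40 UMIs in all, 2 cells each in clusters 1, 14 and 15 and 1 in cluster 12. The other 8 PVH clusters held it in 0 of 291 cells (upper limit 1.03%). All its cells were on AL and JM plates, with 7 of 357 PVH cells there and 0 of 307 on the deeper Q plates (up to 0.977%). The highest plate mean was 18.4 CPM in cluster 14, on JM6. Its mean levels, 2.497 ± 4.77 CPM (SD, n = 8) in cluster 15 and 2.39 ± 6.47 (SD, n = 8) in cluster 14, did not differ beyond the spread. Without the highest plate, JM8 and JM6, these means were 1.12 and 0.104 CPM.

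Whether the receptors occurred in the same cells was asked by counting cells with UMIs of both genes of a pair. *Npy1r* and *Npy5r* were found together in 11 cells, which is 55% of the PVH cells with *Npy5r* and 14.3% of those with *Npy1r*. In cluster 13 all 6 cells with *Npy5r* had *Npy1r*, and in cluster 7 5 of 6 did. *Npy1r* and *Npy2r* met in 1 cell, in cluster 7, where *Npy2r* had 1 UMI. *Npy2r* and *Npy4r* were found together in 3 cells, 2 of them in cluster 14.

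These counts were compared with those expected if both genes fell on cells independently within each plate and cluster. For *Npy1r* and *Npy5r* 12.1 cells were expected, so the 11 observed differed by -0.155 ± 0.341 cells per plate (SD, n = 7; exact sign-flip permutation test, two-sided, p = 0.375, 0.6 after adjustment over 6 pairs). For *Npy1r* and *Npy2r* 2.72 were expected (exact permutation p = 0.25, adjusted 0.6). With so few plates that hold both genes no pair could pass, the smallest p allowed being 0.125 for *Npy1r* with *Npy5r* and 0.25 for *Npy1r* with *Npy2r*. Without division by cluster, 4.31 cells with *Npy1r* and *Npy2r* were expected over 10 plates, and 1 was observed. Fewer than expected were found on 10 of 10 plates (mean difference -0.331 ± 0.232 cells per plate, SD, n = 10; exact permutation p = 0.00195, adjusted 0.0117). A plate with no such cell counts as fewer whenever any is expected. With so few expected cells, this p cannot decide whether the pair is rarer than independence gives. Also without division by cluster, 2.51 cells with *Npy1r* and *Npy5r* were expected (exact permutation p = 0.0625, adjusted 0.125).

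The receptor of the other AGRP neuron peptide, *Mc4r*, was counted in the same way, a comparison added after the data had been seen. Of the 48 PVH cells with *Mc4r*, 31 had *Npy1r* (64.6%), 18 of them in cluster 7 and 7 in cluster 13. Within plate and cluster 25.4 were expected, and the difference was 0.561 ± 0.533 cells per plate (SD, n = 10), higher on 7 plates and lower on 1 (exact permutation p = 0.0156, 0.0625 after adjustment over 4 pairs). *Mc4r* met *Npy5r* in 7 cells (5.71 expected) and *Npy2r* in 2 (2.96 expected), and neither passed (exact permutation, adjusted p = 0.313 and 0.594). For *Npy1r* with *Mc4r* the difference was 0.291 cells per plate when 3 or more UMIs were required and 0.322 in cells thinned to equal totals.

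**Figure D4:**
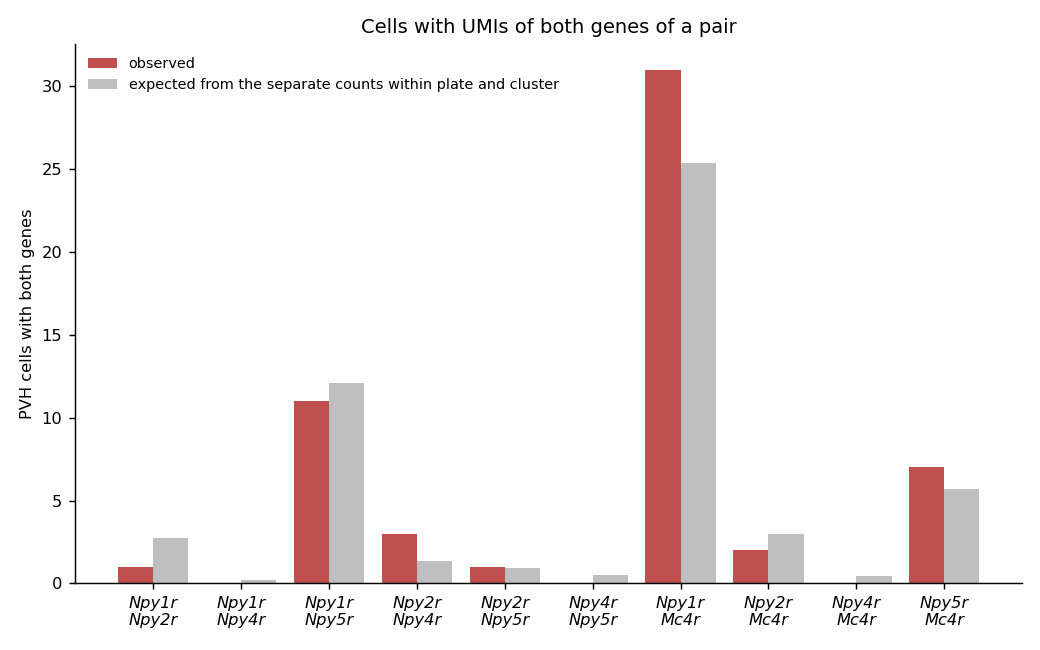
Number of PVH cells with UMIs of both genes of a pair (observed, red) and the number expected from the separate counts within plate and cluster (grey). *Npy1r* with *Npy5r* stands at 11 observed and 12.1 expected, and *Npy1r* with *Mc4r* at 31 and 25.4.

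Detection did not go with more UMIs per cell in every cluster. In cluster 7 the median total was 119803 UMIs in cells with *Npy1r* and 180018 in the 5 cells without it, and in cluster 8 it was 201780 and 169572. In cluster 14 it was 91484 in cells with *Npy2r* and 116986 in those without. When each cell was thinned to 63046 UMIs, *Npy1r* was found in 81.8% of the cells of cluster 7, 90% of those of cluster 13 and 39.0% of those of cluster 8, and *Npy2r* in 37.5% of those of cluster 14. In cluster 14 *Npy1r* was then found in 0 of 48 cells. For *Npy5r* the share in cluster 7 was 9.09% in thinned cells and 8.57% at 3 or more UMIs, and in cluster 13 it was 50% and 31.2%. At least 3 UMIs of *Npy1r* were present in 74.3% of the cells of cluster 7, 75% of cluster 13 and 35.7% of cluster 8, but in 0.452% of cluster 1 and 1.75% of cluster 14.

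Outside the PVH clusters, *Npy1r* was found in 4 of 42 cells, *Npy2r* in 6, *Npy5r* in 3 and *Npy4r* in 0 (up to 7.14%). The 6 cells with *Npy2r* were all among the 25 of cluster 6, at 24%, and this cluster also had 3 cells with *Npy1r* and 3 with *Npy5r*. The shares of PVH and non-PVH cells were compared within the 9 plates that held both, with no minimum number of cells. They did not differ detectably for *Npy1r* (mean difference 1.61 ± 15.9 percentage points, SD, n = 9; exact sign-flip permutation test, two-sided, p = 0.820), *Npy2r* (-7.52 ± 21.1, exact permutation p = 0.375), *Npy4r* (1.13 ± 1.46, exact permutation p = 0.125, the smallest possible there) or *Npy5r* (-9.72 ± 33.5, exact permutation p = 0.953). The adjusted values over these 4 tests ranged from 0.5 to 0.953. The share of *Npy5r* was higher in PVH cells on 5 plates and lower on 2, and without plate Q8, where both cells of cluster 6 had it, the difference was 1.41. Without Q8 the differences of *Npy1r* and *Npy2r* were 6.19 and -2.36.

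Between batches, *Npy1r* was found in 11.8% ± 3.24 (SD, n = 4) of the PVH cells on Q plates and 11.8% ± 5.36 (SD, n = 6) on AL and JM plates (exact permutation test, two-sided, p = 0.986). *Npy2r* was found in 3.55% ± 2.05 (SD, n = 4) and 7.43% ± 4.66 (SD, n = 6) (exact permutation p = 0.171), and *Npy5r* in 0.955% ± 0.639 (SD, n = 4) and 4.75% ± 3.67 (SD, n = 6) (exact permutation p = 0.0905). *Npy4r* was found on no Q plate and in 1.94% ± 1.27 (SD, n = 6) of the cells on the others (exact permutation p = 0.0333, 0.133 after adjustment over the 4 receptors). The batches held different clusters, and with clusters weighted equally the exact permutation p for *Npy4r* was 0.162.

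The genes whose levels over the 12 PVH clusters were most like those of a receptor were ranked by Pearson's r of log2(CPM + 1) among 11247 other genes found in at least 20% of the cells of a cluster. The points share cells and libraries, and r is given as a description. For *Npy1r* these were *Rtp4* (0.91), *Tpp2* (0.91), *Naf1* (0.90), *Mc4r* (0.90) and *Spink8* (0.90). *Mc4r* was found in 54.3% of the cells of cluster 7, 43.8% of cluster 13 and 11.9% of cluster 8, and *Spink8* in 94.3% of cluster 7, 45.2% of cluster 8 and 31.2% of cluster 13. For *Npy2r* they included *D930028M14Rik* (0.97), *Rpp25* (0.93), *Rnd2* (0.93) and *Clca3a1* (0.92). *Rpp25* was found in 28% of the cells of cluster 9, 21.1% of cluster 14 and 6.67% of cluster 15. For *Npy5r* they were *Gm5507* (0.87), *Gm20712* (0.86), *Paxip1* (0.86), *Car8* (0.85) and *Zfp91* (0.85). Between the receptors r was 0.65 for *Npy1r* with *Npy5r*, -0.16 for *Npy1r* with *Npy2r* and -0.05 for *Npy2r* with *Npy5r*.

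The rest of the NPY pathway was followed through lists of genes, read beside the 3.29% of all tests that passed and the median log2 fold change of -0.43 over them. The ligands were nearly absent from these neurons. *Npy* was found in 3 of 664 PVH cells, *Pyy* and *Ppy* in none (up to 0.452%), and *Dpp4*, the peptidase that trims NPY, in 12. None of them passed the filter.

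Of the 3 melanocortin receptor genes, *Mc4r* and *Mrap2*, which encodes an accessory protein of melanocortin receptors, were tested in 20 pairs of gene and cluster, with 3 higher, 2 lower and a median of -0.65. *Mc4r* rose in cluster 7 (log2 fold change 4.11, edgeR adjusted p = 0.0176) and fell in cluster 1 (-4.85, edgeR adjusted p = 0.00825). *Mrap2* rose in clusters 7 (1.18, edgeR adjusted p = 0.00843) and 13 (1.41, edgeR adjusted p = 0.0229), both rich in *Npy1r*, and fell in cluster 1 (-1.26, edgeR adjusted p = 1.61e-05). *Mc3r* was found in 16 PVH cells, 5 of them in cluster 7.

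The inhibitory G alpha subunits through which NPY receptors act were found widely, *Gnao1* in 97.0%, *Gnai2* in 92.8% and *Gnaz* in 91.4% of PVH cells, and 3 of 60 tests passed, 1 higher and 2 lower (5%, median -0.11). *Gnai1* rose in cluster 9 (log2 fold change 1.83, edgeR adjusted p = 0.0137). Of the genes for GIRK channel subunits, *Kcnj9* was found in 55.6% of PVH cells and *Kcnj3*, *Kcnj5* and *Kcnj6* in 4.97%, 4.97% and 5.72%. Of their 23 tests 2 passed, both lower (8.70%, median -0.54), and one was *Kcnj9* in cluster 14 (-1.96, edgeR adjusted p = 0.0415). Of 87 tests of adenylyl cyclase genes, 4 passed (4.598%, 3 higher and 1 lower, median -0.57). The lower one was *Adcy2* in cluster 13 (edgeR adjusted p = 0.0156), where no cell held a UMI of it.

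GABA-A receptor subunits, the targets of the GABA that AGRP neurons release, were called in 19 of 130 tests (14.6%), 5 higher and 14 lower, with a median of -0.65. In cluster 7 *Gabrg1* changed by -5.37 on the log2 scale (edgeR adjusted p = 0.0169), and in cluster 13 *Gabrb1* changed by -2.06 (edgeR adjusted p = 0.00455). In cluster 14 *Gabra5* changed by -3.75 (edgeR adjusted p = 0.0418), and in cluster 9 *Gabra2* changed by 1.45 (edgeR adjusted p = 0.04). Of the metabolic hormone receptors, *Insr* and *Calcr* were tested, 22 tests in all with 2 lower and 0 higher (9.09%, median -0.95): *Calcr*, the calcitonin receptor, fell in cluster 7 (-5.19, edgeR adjusted p = 0.0159) and in cluster 1 (-6.87, edgeR adjusted p = 0.00034). *Lepr*, *Ghsr*, *Glp1r* and *Gipr* were found in 6, 8, 7 and 1 PVH cells. A list of 13 genes that mark PVH neurons or their transmitters, most of which the study picked on these cells, was called in 71 of 144 tests (49.3%, median -3.61).

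Within a cluster and plate, at least 3 cells with and 3 without *Npy1r* were found in cluster 8 only, on plates Q6 (5 with, 3 without), Q7 (3 and 10) and Q8 (5 and 11). In edgeR, with plate and cluster as a block, 0 of 6958 genes passed (0%), 124 had an unadjusted p under 0.05, and DESeq2 called 106. With at least 2 cells on each side, cells of clusters 7, 14 and 15 on plate Q5 also entered, and 0 of 5788 genes passed in edgeR, with 114 at an unadjusted p under 0.05. *Mc4r* was found in 3 of the 16 cells with *Npy1r* and in 2 of the 26 cells without it in cluster 8.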

How the data were processed

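The authors deposited raw UMI counts per gene and well for 10 plates of 96 wells, not normalized, with a table that gives plate and cluster for the cells kept after quality control. The submitters' processing notes name Trimmomatic 0.36, STAR 2.5.3a and GRCm38.p5. Spike-in counts, barcodes and cluster membership scores were not used.

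Counts were summed per plate and cluster (sums of at least 3 cells, clusters with at least 3 plates) and tested with edgeR 4.0.16 under R 4.3.3 (TMM, filterByExpr, robust quasi-likelihood F test, plate as a block), with Benjamini-Hochberg adjustment over all genes of a comparison. The standard errors given with edgeR are the absolute log2 fold change divided by the square root of the F statistic. DESeq2 1.42.0 was an alternative. The study's methods name DESeq2 for its cluster comparisons. Cells with and without *Npy1r* were summed per plate and cluster in the same way. On simulated data edgeR found 65% of genes changed 32-fold in cluster 7 (10032 genes, 3 false calls) and DESeq2 98% (88 false calls). For cells with against without *Npy1r* (6959 genes) edgeR found 71% with 3 false calls and DESeq2 82% with 125. Of genes changed 8-fold, edgeR found 38% in each of these comparisons, and DESeq2 82% and 50%. Shares and pairs were tested with exact permutation tests over plates (Python 3.11.15, scipy 1.17.1). A neighbour in the order of levels differed beyond the spread when the difference of means exceeded the larger SD. No doublet caller was run, since single cells were picked by hand. Thinning to 63046 UMIs, the 10th percentile, left out 71 cells.

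The receptors, gene lists and tests were chosen with earlier results of these data known. Genes named were the receptors, the 5 genes most like each receptor found in at least 20% of a cluster's cells, list members past the threshold, and, between cells with and without *Npy1r*, the 10 largest changes in each direction among genes past it. *Pcp4* and *Hspa1a* and other members of lists were named after their values were seen. Values of some genes that this rule names are not reported here.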

Additional observations from a re-analysis of the deposited data

Results flagged for a closer look

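Of the 11 groups of plates examined for a plate far from the others, 1 was flagged, and chance flags about 1 in 20 groups. Among the 4 Q plates, the share of PVH cells with *Npy5r* was 0% on Q6 and 1.22% to 1.35% on the others, which is 0 cells against 1 cell per plate.

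Receptor UMIs were also present in the 254 wells outside the table of kept cells, which the comparisons did not use and which held a median of 29122 UMIs in total. *Npy1r* was found in 14 of these wells (5.51%, exact Clopper-Pearson 95% interval 3.05 to 9.08), *Npy2r* in 10 (3.94%, 1.90 to 7.12) and *Npy5r* in 5 (1.97%, 0.642 to 4.53). The wells with *Npy1r* had a median total of 40974 UMIs and up to 45 UMIs of the receptor.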

How the results depend on the processing

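The 5 receptor calls between clusters became 9 with DESeq2, 8 without a filter on low counts (47 tests), 2 with sums of at least 5 cells and 2 in thinned cells (8 tests), and 3 to 7 when 1 plate was left out. They stayed 5 with DESeq2's size factors and were 7 without the plate as a block. The 3 calls without AL5, AL6 or JM6 lack cluster 13, which then had under 3 plates, and also cluster 14. In cluster 14 *Npy1r* had an edgeR adjusted p of 0.0728 without AL6 and 0.0785 without JM6, and it was not tested without AL5. *Npy1r* kept its direction in clusters 1, 7, 10, 13 and 14 in each alternative that could be fitted. It passed in 15 of 15 alternatives in cluster 1, 16 of 16 in cluster 10, 15 of 16 in cluster 7, 10 of 11 in cluster 13 and 7 of 13 in cluster 14.

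Between cells with and without *Npy1r*, the count of 0 genes became 106 with DESeq2, 3 without the filter on low counts (*Trh*, *Pcp4* and *Hspa1a*) and 0 to 2 when 1 plate was left out, the 2 (*Pcp4* and *Hspa1a*) without Q7. Sums of at least 5 cells left 1 plate and could not be fitted. The batch difference in *Npy4r* ranged from -2.32 to -1.64 percentage points when 1 plate was left out, and passed without JM5 (exact permutation, adjusted p = 0.0317). Without division by cluster, the pair *Npy1r* and *Npy2r* passed (-0.331 cells per plate, adjusted p = 0.0117 in the exact permutation test), as did *Npy1r* and *Mc4r* (2.55 cells per plate, adjusted p = 0.00781). The latter pair was added after the data had been seen, as were means without the highest plate. For *Npy1r* and *Npy2r* 1 cell was observed and 4.31 were expected, too few for the p of this pair to decide. Within plate and cluster the *Npy1r* and *Mc4r* difference was 0.291 cells per plate at 3 or more UMIs (exact permutation, adjusted p = 0.625) and 0.322 in thinned cells (adjusted p = 0.25). The cause of these changes was not tested. The number of cells limits the rarer receptors, with 7 PVH cells for *Npy4r* and 20 for *Npy5r*.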
